A study of Rattus norvegicus with 8 samples.

Results

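The genes described here encode the subunits of the receptors for glutamate and GABA, the main excitatory and inhibitory transmitters of the brain. They were the probe sets whose platform annotation gave a single symbol for an AMPA (Gria), NMDA (Grin), kainate (Grik), delta (Grid), metabotropic glutamate (Grm) or GABA-A (Gabr) receptor subunit, and each gene was read from its brightest probe set, averaged over the arrays. This gave 39 genes from 52 probe sets, out of 10411 genes with a symbol of their own on the array. The count comprised 4 AMPA, 7 NMDA, 5 kainate, 1 delta, 7 metabotropic glutamate and 15 GABA-A subunit genes. The GABA-B receptor genes do not fall under the rule and are given with the other genes of transmission.

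The data are 8 Affymetrix RAE 230A arrays of total RNA taken from a right-hemisphere segment in male Wistar rats, 7 weeks old and weighing 160 to 200 g. Each array held RNA pooled from 2 rats, and 2 pools stood for each of the 4 groups MCAO candesartan, sham candesartan, MCAO vehicle and sham vehicle. MCAO rats had the right middle cerebral artery occluded for 90 min and then reperfused, sham rats had the sham operation, and tissue was taken 2 h afterwards, so that all cell types of the segment contributed to 1 sample. Candesartan, a blocker of the angiotensin AT1 receptor, was given at 0.1 mg/kg for 5 days before surgery, and the vehicle was 0.9% NaCl. For MCAO candesartan pool 2 the pretreatment came from its source name and description alone, since its protocol named none. That array also correlated least with the rest (mean correlation 0.959, against 0.976 to 0.978 for the other 7). The operation itself was visible in every pool: the activity-induced transcription factor gene Fos gave 10898.8 and 7984.5 in MCAO vehicle pools and 954.8 and 964.8 in sham vehicle pools, and 6332.2 and 7694.7 in MCAO candesartan pools and 754.8 and 852.3 in sham candesartan pools. Arc, another activity-induced gene, differed by 1.82 and 1.87 (log2) between MCAO and sham in vehicle and candesartan rats, and the heat shock gene Hspa1a by 4.14 and 2.58, all past the test. Of 15 general neuron markers 14 were on the array and all 14 passed the signal filter described next.

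AMPA, NMDA and kainate receptors are tetrameric cation channels that glutamate opens, and the metabotropic receptors act through G proteins. GABA-A receptors are pentameric chloride channels assembled from alpha, beta, gamma, delta and other subunits. Excess glutamate released in an ischemic brain overstimulates the NMDA and AMPA receptors, a process known as excitotoxicity, and loss of the GluA2 subunit (Gria2), which makes AMPA receptors poorly permeable to calcium, is a known late event in vulnerable neurons.

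Of the 39 genes 24 had a signal above 916.3, the 40th percentile of all values, on at least 2 arrays and were tested among 10310 probe sets. The other 15 exceeded it on 1 array (Grid1, Grin2d and Grin3a) or on none: Gria4, Grin3b, Grik3, Grm6, Gabra6, Gabre, Gabrg3, Gabrp, Gabrq, Gabrr1, Gabrr2 and Gabrr3. Most tested members passed on 6 to 8 arrays. Grin2a passed on 4 arrays, and Grik1 and Grm5 on 2. Grik1 passed through 2 sham arrays (985.3 in sham vehicle 2 and 923.8 in sham candesartan 1), and Grm5 through 2 candesartan arrays (917.8 in MCAO candesartan 1 and 950.8 in sham candesartan 2). Each was thus kept through the groups where it was high, so counts are also given without both. Grm5 was not tested when the percentile was taken without control probe sets (918.8). A probe set's brightness depends on its own probes, so levels are compared here between arrays and not between genes.

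The first comparison asked what MCAO changed in vehicle rats at 2 h. In limma's test 0 of the 24 subunit genes were called at an adjusted p under 0.05, where 0.262% of all tested probe sets were called, and the smallest adjusted p of a member was 0.701. At an unadjusted p under 0.05 there was 1 member, Grin2c, against 7.04% of all probe sets. Of the 24 differences 16 lay below 0, with a median of -0.16 on the log2(signal + 369.9) scale, which understates differences of dim genes, while the median of all tested probe sets was 0.01. In 11 members both MCAO pools lay below both sham pools, an order found in 20.6% of all probe sets, and in 3 both lay above, an order found in 24.6%. Without Grik1 and Grm5 these counts were 9 and 3 of 22, with a median of -0.13. With all 39 members fitted without the signal filter, 19 lay above 0 and the median was -0.0235. For 23 of 24 members the 95% interval of the difference lay within a 2-fold change either way, the exception being Grm5. The same held for 96.8% of all tested probe sets. The members' median was -0.08 without MCAO vehicle 2.

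Among the AMPA subunits the brightest probe sets of all 3 tested genes had both MCAO vehicle pools below both sham vehicle pools. Gria1 gave 1844.1 and 1617.7 in MCAO vehicle pools and 2203.5 and 1987.1 in sham vehicle pools, a difference of -0.23 ± 0.19 (log2, SE; adjusted p = 0.873). Gria2 gave 13043.9 and 13970.8 in MCAO vehicle pools and 17880.8 and 14757 in sham vehicle pools, a difference of -0.26 ± 0.14 (adjusted p = 0.759). Gria3 gave 8707.3 and 8779.8 in MCAO vehicle pools and 11154.2 and 9663.6 in sham vehicle pools, a difference of -0.24 ± 0.27 (adjusted p = 0.931). The groups were thus separate in the brightest probe set of each gene, and none passed the test. The second tested probe set of Gria2 gave -0.13 and that of Gria3 -0.05, in the same direction and smaller. In this Gria3 probe set the groups overlapped, at 1349.2 and 1581.2 in MCAO vehicle pools and 1638 and 1413.2 in sham vehicle pools. Under quantile normalization and median centring all 3 genes again lay below 0.

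NMDA receptors need the Grin1 subunit together with a Grin2 or Grin3 subunit. Grin1 gave 6631.2 and 5711.9 in MCAO vehicle pools and 5550.8 and 6612.7 in sham vehicle pools, and the groups overlapped. Grin2a, typical of mature synapses, gave 987.3 and 631.9 in MCAO vehicle pools and 852 and 992.8 in sham vehicle pools, again overlapping. Grin2b, which dominates early in development and persists in the forebrain, gave 1500.7 and 1232.3 in MCAO vehicle pools and 1525.2 and 1775.6 in sham vehicle pools, a difference of -0.22 ± 0.18 with no overlap (adjusted p = 0.870). Grin2c ran the other way: it gave 2910.9 and 2808.5 in MCAO vehicle pools and 1971.1 and 2479.5 in sham vehicle pools, a difference of 0.32 ± 0.14 (adjusted p = 0.701). Grin2c encodes a subunit with a weak magnesium block that is prominent in cerebellar granule cells and is also made by astrocytes.

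The kainate subunit genes Grik1, Grik2 and Grik4 had differences of -0.19, -0.18 and -0.31, and Grik5 one of 0.09. Grik1 gave 801.3 and 716.9 in MCAO vehicle pools and 850 and 985.3 in sham vehicle pools. Grik2 gave 1339.7 and 1015.3 in MCAO vehicle pools and 1416.2 and 1328.7 in sham vehicle pools. The pools of Grik1 were separate and those of Grik2 overlapped. Grik4, whose product forms high-affinity kainate receptors with the subunits of Grik1 to Grik3, gave 912.8 and 946.8 in MCAO vehicle pools and 1252.2 and 1229.8 in sham vehicle pools. The pools of a group lay close together and the groups did not overlap (difference -0.31 ± 0.20, adjusted p = 0.830).

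Of the metabotropic receptors, Grm5, a postsynaptic receptor that raises intracellular calcium, had the largest difference of all 24 members. It gave 346.4 and 292.4 in MCAO vehicle pools and 842 and 587.9 in sham vehicle pools, a difference of -0.65 ± 0.30 (adjusted p = 0.705), and its 95% interval ran from a fold of 0.405 to 1.01. All 4 pool values lay below the signal limit of 916.3, so the probe set was dim and this scale understates its fold in signal. Grm2, an inhibitory autoreceptor, gave 2301 and 2386.5 in MCAO vehicle pools and 1681.6 and 1968.6 in sham vehicle pools (difference 0.31 ± 0.19, adjusted p = 0.801). Grm3 lay at -0.20, Grm4 at 0.00, Grm7 at -0.06 and Grm8 at 0.25. The second tested probe set of Grm8 lay at -0.20, on the other side of 0. Grm4 gave 2082.1 and 2248.6 in MCAO vehicle pools and 1683.1 and 2754.9 in sham vehicle pools, which spanned both MCAO values.

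For GABA-A receptors 5 of 7 tested genes lay below 0, and 0 were called. Gabra3 and Gabrd lay at 0.11 each, Gabra4 at -0.12 and Gabrb1 at -0.19. Gabrg1, the gene of a gamma subunit, gave 1705.7 and 1784.2 in MCAO vehicle pools and 2254.5 and 2298 in sham vehicle pools, a difference of -0.32 ± 0.16 (adjusted p = 0.731). Gabra5, whose product carries tonic inhibition in the hippocampus, gave 3817.2 and 3719.8 in MCAO vehicle pools and 5348.4 and 4056.7 in sham vehicle pools (difference -0.28 ± 0.17, adjusted p = 0.792). The brightest probe set of Gabrb2 was the steadiest of the 24: over all 8 arrays its highest value was 1.10 times its lowest. It gave 18120.9 and 17302.7 in MCAO vehicle pools and 18341.2 and 17673 in sham vehicle pools, a difference of -0.02 ± 0.11. The second tested probe set of Gabrb2 was not steady, with a highest value 2.31 times its lowest. It gave 0.13 ± 0.22 here, 0.41 ± 0.22 for MCAO minus sham with candesartan (adjusted p = 0.471) and -0.45 ± 0.22 for candesartan minus vehicle after sham (adjusted p = 1).

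Markers of astrocytes lay lower in the same arrays, 16 of 16 below 0, with a summed signal of 299577.2 and 306323.2 in MCAO vehicle pools and 350702.3 and 363926.5 in sham vehicle pools. Of the general neuron markers 11 of 14 lay below 0, with sums of 294036 and 280614.9 in MCAO vehicle pools and 314478 and 288848.6 in sham vehicle pools. Other lists went both ways. Oligodendrocyte markers lay above 0 in 7 of 8 (median 0.09), and endothelial and mural cell markers in 6 of 8. Choroid plexus and ependyma markers lay above 0 in 4 of 6 and interneuron markers in 5 of 8. Microglia and macrophage markers and striatal neuron markers lay below 0 in 7 of 10 each, and pyramidal neuron markers in 6 of 9. The part of these markers in the receptor differences was not tested. In whole tissue fewer cells of a type and less RNA per cell cannot be told apart.

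**Figure D1:**
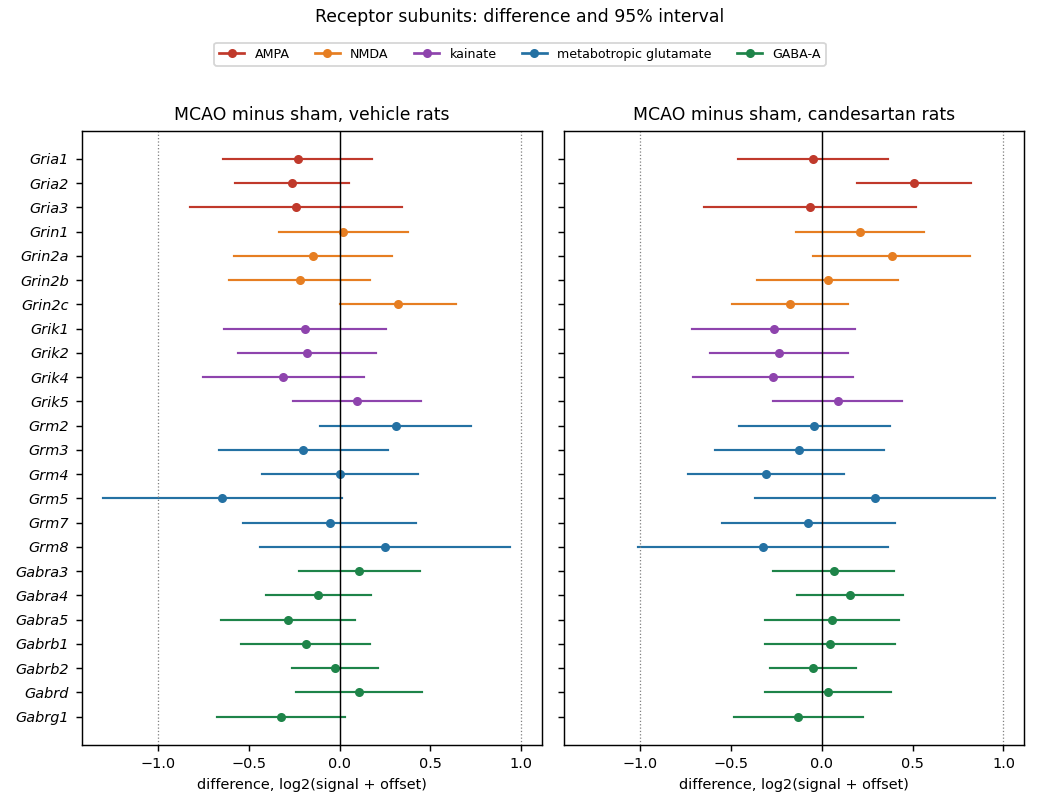
Difference between MCAO and sham arrays for the 24 tested subunit genes, in vehicle rats (left) and candesartan rats (right), on the log2(signal + 369.9) scale. Points are limma estimates from 2 pools a group, lines are 95% intervals, dotted lines mark a 2-fold difference, and colours give the receptor family. Most intervals include 0, and in vehicle rats 16 of 24 points lie left of it.

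In candesartan rats the same operation again gave 0 called members of 24 in limma's test, where 0.242% of all probe sets were called. At an unadjusted p under 0.05 there was 1 member, Gria2, against 12.4% of all probe sets. Members lay on both sides of 0, 11 above and 13 below, with a median of -0.04 against -0.03 for all probe sets. Of 24 intervals 23 lay within a 2-fold change, the exception being Grm8, against 95% of all tested probe sets. Both MCAO pools lay above both sham pools in 3 members (Gria2, Grin2a and Gabra4), an order found in 16.9% of all probe sets, and below in 4 (Grin2c, Grik1, Grik2 and Grm4), an order found in 21.4%. Without Grik1 and Grm5 the counts were 3 and 3 of 22.

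Gria2 gave 17623.9 and 17504.9 in MCAO candesartan pools and 13890.2 and 10780.3 in sham candesartan pools, a difference of 0.51 ± 0.14 (adjusted p = 0.235). The dimmer probe set of the same gene gave 8262.8 and 8870.9 in MCAO candesartan pools and 8932.7 and 9331.6 in sham candesartan pools, a difference of -0.09 ± 0.11. The probe sets of Gria2 thus lay on opposite sides of 0 in candesartan rats, and the higher value rests on 1 of them. Grin2a gave 1215.2 and 1225.7 in MCAO candesartan pools and 835.8 and 862.8 in sham candesartan pools, a difference of 0.38 ± 0.20 (adjusted p = 0.456). Its other probe set, too dim to be tested, lay at -0.26. Grin2c gave 2413.5 and 2936.3 in MCAO candesartan pools and 3168.4 and 2942.4 in sham candesartan pools, a narrow separation (difference -0.17 ± 0.14, adjusted p = 0.645). Grin2b gave 1169.8 and 1363.2 in MCAO candesartan pools, within the range of its sham candesartan pools. Cell type markers differed in this comparison too. Pyramidal neuron markers, with the MCAO-induced Egr1 among them, lay above 0 in 8 of 9 (median 0.59). Hypothalamus and thalamus markers lay below 0 in 6 of 10 (median -0.41), and choroid plexus and ependyma markers in 6 of 6 (median -0.36). The share of these marker differences in the subunit values was not tested.

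Grik1 and Grik2, genes of low-affinity kainate receptor subunits, lay lower. Grik1 gave 855.3 and 564.4 in MCAO candesartan pools and 923.8 and 909.3 in sham candesartan pools (difference -0.27 ± 0.20, adjusted p = 0.614). Grik2 gave 1352.2 and 1054.8 in MCAO candesartan pools and 1402.2 and 1551.7 in sham candesartan pools (difference -0.24 ± 0.17, adjusted p = 0.597). Grm4, a presynaptic receptor gene, gave 1816.1 and 1679.1 in MCAO candesartan pools and 2548 and 1989.6 in sham candesartan pools (difference -0.31 ± 0.19, adjusted p = 0.539). For all 3 genes the groups were separate and the difference did not pass the test.

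Taken over both pretreatments, 4 MCAO arrays against 4 sham arrays, 0 of 24 members were called (0.417% of all probe sets), and 0 had an unadjusted p under 0.05, against 9.52% of all probe sets. All 24 intervals lay within a 2-fold change, as did 99% of all tested probe sets. In no member did the MCAO arrays lie wholly above or wholly below the sham arrays. These orders were found in 2.83% and 2.39% of all probe sets. Without Grik1 and Grm5 the orders and an unadjusted p under 0.05 were again found in 0 of 22 members. The smallest p belonged to Grik4 (-0.29 ± 0.14, adjusted p = 0.564) and Gabrg1 (-0.23 ± 0.11, adjusted p = 0.574). Grik4 gave 1109.8 and 710.8 in MCAO candesartan pools and 989.8 and 1336.7 in sham candesartan pools. Gabrg1 gave 1512.7 and 2146 in MCAO candesartan pools and 2163.1 and 1866.6 in sham candesartan pools. In candesartan rats the pools of both genes overlapped, unlike in vehicle rats.

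The comparison of pretreatments asked whether candesartan altered receptor transcripts after MCAO. Again 0 of 24 members were called in limma's test, where 0.0679% of all probe sets were called. At an unadjusted p under 0.05 there were 4 members, all higher with candesartan (Gabra4, Grm5, Gria2 and Grin2a), against 13.1% of all probe sets in either direction and 5.43% in that direction. The median of the members was 0.03, against -0.03 for all probe sets, with 14 above 0. Both candesartan pools lay above both vehicle pools in 6 members, an order found in 18% of all probe sets, and below in 1 (Grm4), an order found in 23.8%. Without Grik1 and Grm5, 3 of 22 members had an unadjusted p under 0.05, and the orders were found in 5 and 1.

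Gabra4, which encodes an alpha subunit of extrasynaptic GABA-A receptors, gave 2827.4 and 3069.8 in MCAO candesartan pools and 1998.1 and 2389.5 in MCAO vehicle pools. The difference was 0.38 ± 0.13 (adjusted p = 0.281), and the 95% interval ran from a fold of 1.06 to 1.59. Gabra4 gave 2701.5 and 2516 in sham candesartan pools and 2376 and 2428.5 in sham vehicle pools, all below both MCAO candesartan pools. Grm5 gave 917.8 and 729.8 in MCAO candesartan pools and 346.4 and 292.4 in MCAO vehicle pools, a difference of 0.79 ± 0.30 (adjusted p = 0.312). The sham pools of Grm5 disagreed among themselves, at 344.4 and 950.8 with candesartan and 842 and 587.9 with vehicle.

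Gria2 differed by 0.37 ± 0.14 (adjusted p = 0.320) and its dimmer probe set by 0.08 ± 0.11, both with candesartan pools above vehicle pools. Grin2a differed by 0.45 ± 0.20 (adjusted p = 0.369), while its dimmer, untested probe set lay at -0.31 with both candesartan pools below both vehicle pools. Grin1 gave 6674.6 and 9194.3 in MCAO candesartan pools against 6631.2 and 5711.9 in MCAO vehicle pools, a difference of 0.33 ± 0.16 (adjusted p = 0.407). Its sham candesartan pools gave 7016.6 and 6459.7, and its second probe set, too dim to be tested, lay at -0.66. MCAO candesartan 2, the array with the high Grin1 value, gave the lowest value of Gria1 among all 8, 1150.2, where MCAO candesartan 1 gave 1898.6. Gabrb2 gave 18273.2 and 16694.6 in MCAO candesartan pools, which overlapped the MCAO vehicle pools, and 18013.4 and 18160.8 in sham candesartan pools.

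**Figure D2:**
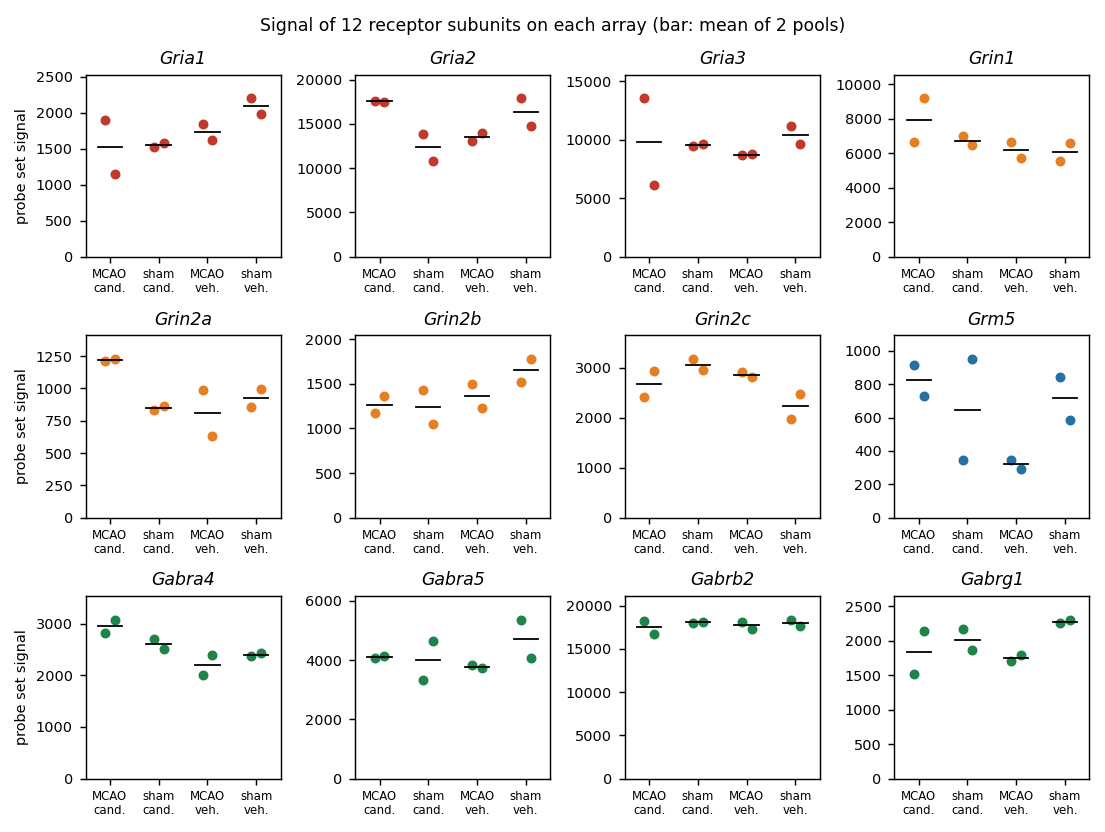
Signal of 12 subunit genes on each of the 8 arrays, on linear axes that start at 0. Each point is 1 pool of 2 rats and each bar the mean of the 2 pools of a group. Grin2a and Gabra4 are highest in MCAO candesartan pools, Grm5 has its lowest mean in MCAO vehicle pools, and Gabrb2 differs little between arrays.

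Cell type markers also differed between these arrays. Of 9 pyramidal neuron markers 8 lay above 0, with a median of 0.53, 0 called, and summed signals of 155551.2 and 194108.7 in MCAO candesartan pools and 129017.7 and 105690.9 in MCAO vehicle pools. The marker sum was 105759.4 and 104933 in sham candesartan pools and 108899.6 and 102478.3 in sham vehicle pools. These sums include Egr1, which was itself higher after MCAO, so they do not measure pyramidal neurons alone. The mean of Egr1 was 26682.8 in MCAO candesartan and 12988.4 in sham candesartan pools. With vehicle it was 25859 and 13904.9. General neuron markers summed to 322811.1 and 365056.7 in MCAO candesartan pools and 294036 and 280614.9 in MCAO vehicle pools, with 11 of 14 above 0. Of the hypothalamus and thalamus markers 6 of 10 lay below 0, with a median of -0.23 and sums of 36071.1 and 45827.2 in MCAO candesartan pools and 50880.9 and 42090.5 in MCAO vehicle pools. The sums of the 2 groups overlapped. Other lists shifted as well. Choroid plexus and ependyma markers lay below 0 in 6 of 6 (median -0.25) and oligodendrocyte markers in 6 of 8 (median -0.21). Striatal neuron markers lay above 0 in 8 of 10 (median 0.11), interneuron markers in 5 of 8 (median 0.20) and cerebellum markers in 4 of 6 (median 0.20). Microglia and macrophage markers lay below 0 in 6 of 10 (median -0.05), and endothelial and mural cell markers in 5 of 8 (median -0.07). The share of these marker differences in the receptor values was not tested.

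Of the tested members 5 had an unadjusted p under 0.05 in at least 1 comparison, Gria2, Grin2a, Grin2c, Grm5 and Gabra4. This is 20.8% of the tested members, against 27.5% of all tested probe sets, and serves only to choose which promoters to print. The RefSeq promoter table (build GRCr8) held 3 of the 5. Their promoters are printed 5′ to 3′ on the strand of the gene, from 250 bases before to 50 bases after the start the table uses, to show which regulatory letters these genes carry there. Gabra4 lies at chr14:36944497-36944796 on the plus strand, Grin2c at chr10:101005089-101005388 on the minus strand and Grm5 at chr1:150733503-150733802 on the plus strand. The windows of Grin2c and Grm5 lie within the annotated span of their genes, so that they mark 1 of several starts. Capitals mark the motifs searched.
Gabra4: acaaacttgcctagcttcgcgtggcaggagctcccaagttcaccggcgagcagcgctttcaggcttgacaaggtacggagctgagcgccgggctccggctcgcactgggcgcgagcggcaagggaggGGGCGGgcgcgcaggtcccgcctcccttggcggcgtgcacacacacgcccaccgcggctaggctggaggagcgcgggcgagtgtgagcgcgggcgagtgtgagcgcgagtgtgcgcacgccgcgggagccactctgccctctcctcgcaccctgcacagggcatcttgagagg
Grin2c: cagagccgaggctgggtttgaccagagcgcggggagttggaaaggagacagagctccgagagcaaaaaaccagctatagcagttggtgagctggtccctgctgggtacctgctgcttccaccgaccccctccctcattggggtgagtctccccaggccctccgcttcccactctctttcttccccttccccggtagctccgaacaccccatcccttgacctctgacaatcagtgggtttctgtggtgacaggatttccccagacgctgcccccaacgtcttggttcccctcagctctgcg
Grm5: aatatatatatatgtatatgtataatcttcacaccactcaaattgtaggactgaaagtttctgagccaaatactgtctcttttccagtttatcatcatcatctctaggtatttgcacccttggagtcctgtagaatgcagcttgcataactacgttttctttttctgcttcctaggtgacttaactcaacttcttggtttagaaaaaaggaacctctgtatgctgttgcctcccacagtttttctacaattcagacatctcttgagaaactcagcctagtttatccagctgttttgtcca

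The motifs searched, on both strands, were the cAMP response element TGACGTCA, the AP-1 site TGANTCA that Fos and Jun proteins bind, the Egr site GCGTGGGCG and the Sp1 GC box GGGCGG. Promoters were listed for 28 of the 39 members. The cAMP response element, the AP-1 site and the Egr site each occurred in 0 of these 28, against 1.91%, 7.33% and 0.59% of 27457 promoters of the same length. The GC box occurred in 10 of 28 (35.7%), against 34.9% of all promoters, and is the motif in capitals in Gabra4. A missing match says only that these letters are not in this window.

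In sham rats candesartan was compared with vehicle to ask what the drug did without ischemia. Here 0 of 24 members and 0% of all 10310 probe sets were called in limma's test. Unadjusted p lay under 0.05 in 2 members, against 3.92% of all probe sets. The members' median was 0.00, against 0.01 for all probe sets. Both candesartan pools lay above both vehicle pools in 4 members (18.9% of all probe sets) and below in 6 (14.9%). The brightest probe sets of all 3 AMPA genes were among these 6. Without Grik1 and Grm5 the orders were found in 4 and 6 of 22 members, and 2 had an unadjusted p under 0.05. This comparison and that of MCAO in vehicle rats share the sham vehicle arrays, so that a high value on those arrays gives a negative difference in both.

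Gria1 gave 1524.2 and 1576.7 in sham candesartan pools and 2203.5 and 1987.1 in sham vehicle pools, a difference of -0.36 ± 0.19 (adjusted p = 1). Gria2 differed by -0.40 ± 0.14 (adjusted p = 1), and its dimmer probe set by 0.03. Gria3 gave 9505.1 and 9622.5 in sham candesartan pools and 11154.2 and 9663.6 in sham vehicle pools, a difference of -0.11, and its second probe set lay at 0.11 with overlapping pools. Grin2b gave 1427.7 and 1048.3 in sham candesartan pools and 1525.2 and 1775.6 in sham vehicle pools (difference -0.34 ± 0.18, adjusted p = 1). Grin2c gave 3168.4 and 2942.4 in sham candesartan pools and 1971.1 and 2479.5 in sham vehicle pools (difference 0.41 ± 0.14, adjusted p = 1). The sham vehicle pools thus held the lowest mean of Grin2c and the highest means of Gria1, Gria3 and Grin2b among the 4 groups.

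**Figure D3:**
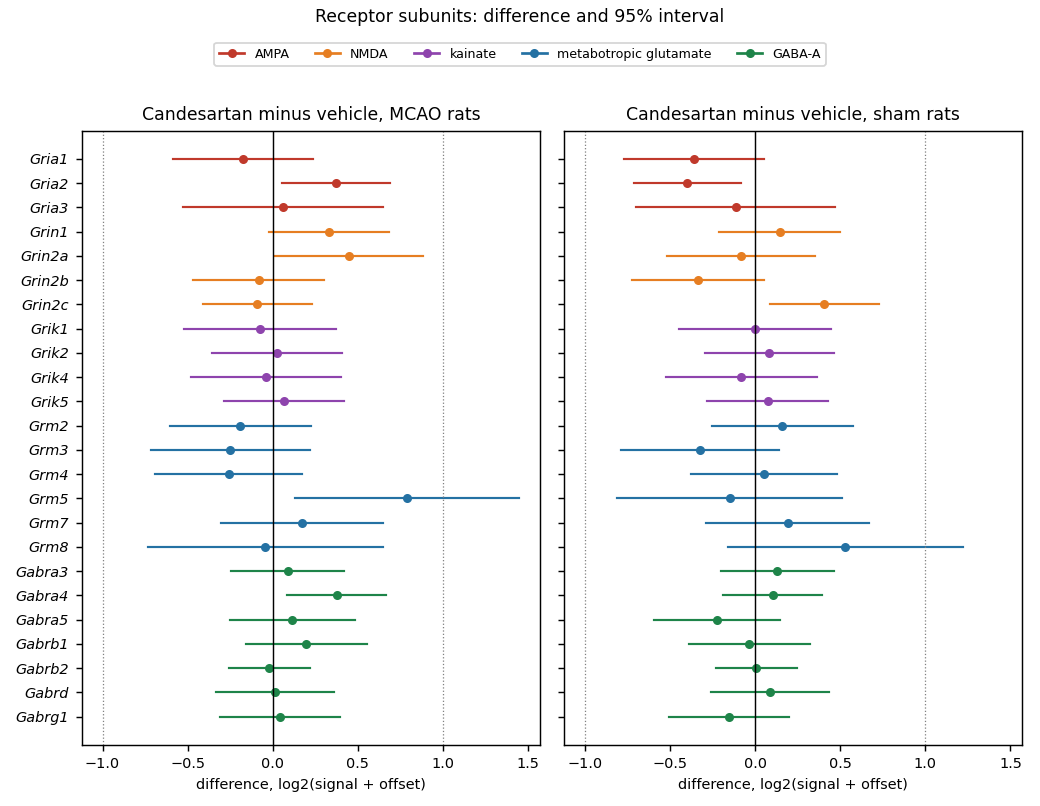
Difference between candesartan and vehicle arrays for the 24 tested subunit genes, after MCAO (left) and after the sham operation (right), drawn as limma estimates with 95% intervals on the log2(signal + 369.9) scale. Dotted lines mark a 2-fold difference. Grm5 lies farthest from 0 after MCAO, at 0.79, and Grm8 after the sham operation, at 0.53.

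The interaction asks whether the MCAO difference itself depended on pretreatment. It was called for 0 of 24 members, against 0.0194% of all probe sets, and had an unadjusted p under 0.05 in 3, against 8.87%. Without Grik1 and Grm5, 2 of 22 members had an unadjusted p under 0.05. The interaction was 0.77 ± 0.20 for Gria2 (adjusted p = 0.458), -0.50 ± 0.20 for Grin2c (adjusted p = 0.551), 0.94 ± 0.42 for Grm5 (adjusted p = 0.562) and 0.53 ± 0.28 for Grin2a (adjusted p = 0.585). The dimmer Gria2 probe set gave 0.04 ± 0.15, and the dimmer, untested Grin2a probe set -0.35. The 95% intervals of 19 of the 24 members lay within a 2-fold change, against 82.1% of all tested probe sets.

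The pools of 1 group also differed from each other. Over the 24 members, pool 1 and pool 2 lay a median of 0.30 (log2) apart in MCAO candesartan, 0.13 in sham candesartan, 0.10 in MCAO vehicle and 0.18 in sham vehicle. In MCAO candesartan Gria3 gave 13559.7 in pool 1 and 6107.1 in pool 2, Grm3 gave 4823.5 and 2675.4, and Grm8 gave 1082.3 and 2269.5. With MCAO candesartan 1 left out, pool 2 stands alone for its group, and 3 members passed in candesartan minus vehicle after MCAO: Gria3, Grin1 and Grm3, at -0.49, 0.55 and -0.63. In that fit 9.56% of all probe sets passed. Gria3 then also passed in MCAO minus sham with candesartan (-0.62) and over both pretreatments (-0.43), where 8.1% and 3.77% of all probe sets passed. With all 8 arrays Gria3 differed by 0.06, -0.06 and -0.15 in these 3 comparisons.

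**Figure D4:**
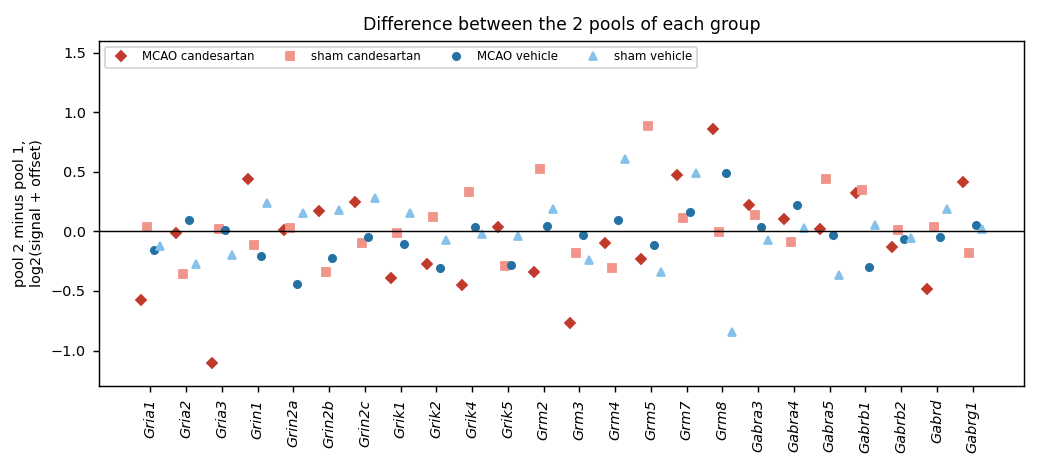
Difference between pool 2 and pool 1 of each group for the 24 tested subunit genes, on the log2(signal + 369.9) scale. Each symbol is 1 group. The MCAO candesartan symbols spread widest, down to -1.10 for Gria3 and up to 0.86 for Grm8.

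The 15 dim members were fitted without the signal filter, where 0 of 39 members were called in any of the 6 comparisons. Of all 15866 probe sets in this fit, 0.0756% were called for MCAO with vehicle and 0.101% with candesartan. Over both pretreatments 0.189% were called, and in both candesartan comparisons and the interaction 0%. Gabra6, a subunit gene of cerebellar granule cells, gave 256.4 and 226.4 in MCAO candesartan pools and 680.4 and 630.9 in sham candesartan pools (difference -0.75 ± 0.21, adjusted p = 0.297). Gabre gave 353.9 and 280.4 in MCAO candesartan pools and 672.9 and 608.9 in MCAO vehicle pools (difference -0.56 ± 0.19, adjusted p = 0.378). Grid1 gave 403.9 and 1003.3 in MCAO candesartan pools and 25.5 and 395.9 in MCAO vehicle pools (difference 0.91 ± 0.36, adjusted p = 0.420).

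Other genes of glutamate and GABA transmission were read from 3 lists. Of 18 tested genes for transporters and synthesis, 0 were called after MCAO in vehicle rats, 11 lay below 0 and the median was -0.03. Only 0.262% of all tested probe sets were called in this comparison, so a count of 0 in so short a list says little. The smallest p belonged to the glial glutamate transporter gene Slc1a3 (17295.6 and 21238.5 in MCAO vehicle pools, 26572.5 and 30710.3 in sham vehicle pools; difference -0.57 ± 0.17, adjusted p = 0.441). Next was Glud1, the gene of glutamate dehydrogenase, at -0.35 ± 0.12 (adjusted p = 0.482). Of 28 genes for scaffolds, auxiliary subunits and receptor traffic, 0 were called, against the same 0.262%, and 19 lay below 0. The postsynaptic scaffold gene Dlg4 differed by -0.34 ± 0.14 (adjusted p = 0.649) and Homer1, whose short form is activity-induced, by 0.30 ± 0.13 (adjusted p = 0.688). The GABA-B receptor genes Gabbr1 and Gabbr2 lay at -0.14 and -0.07, and Kctd12, an auxiliary subunit gene, at -0.25 ± 0.19.

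For candesartan minus vehicle after MCAO the same lists also had 0 called genes, where 0.0679% of all tested probe sets were called. Camk2a, the gene of a postsynaptic kinase, gave 15879.2 and 10931.9 in MCAO candesartan pools and 4401.6 and 2412 in MCAO vehicle pools (difference 1.90 ± 0.41, adjusted p = 0.194). The sham pools of Camk2a lay far apart, at 6654.7 and 2217 with candesartan and 5186.4 and 3273.3 with vehicle. Camk2a is a pyramidal neuron marker as well. Nptxr, which encodes a receptor that gathers AMPA receptors, differed by 0.35 ± 0.11 (adjusted p = 0.264). The vesicular glutamate transporter gene Slc17a6, typical of thalamus and other subcortical neurons, gave 5693.8 and 5514.2 in MCAO candesartan pools and 8530.3 and 7782 in MCAO vehicle pools (difference -0.51 ± 0.12, adjusted p = 0.195), and Slc1a3 differed by 0.43 ± 0.17 (adjusted p = 0.337). Gabbr1 lay at 0.09 ± 0.12 and Kctd12 at 0.11 ± 0.19.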

How the data were processed

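The authors deposited linear signal intensities, 1 per probe set and array, in a series table. They came from GCOS, the Affymetrix operating software, per the submitters' processing notes, with version and settings not given in the sources used here. Trimmed means differed by 0.000426% between arrays, so this scaling was kept. Of all array pairs 0 were identical. Gene names came from the platform annotation. All 39 members matched the RefSeq gene table and 0 symbols differed.

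Values became log2(signal + 369.9), the 20th percentile of all values, and 10310 probe sets that exceeded 916.3 (40th percentile) on 2 or more arrays were kept. In R 4.3.3 a single limma 3.58.1 model of the 4 group means (eBayes with its intensity trend; residual degrees of freedom, 4) gave 6 comparisons, each with Benjamini-Hochberg adjustment over all 10310 probe sets and a call under 0.05. With 2 pools against 2, an exact permutation test cannot go below p = 0.333, so p-values rest on limma's pooled spread and the number of arrays limits precision. The labels do not say whether pools came from separate surgery days, so p-values measure the spread between these pools.

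The MCAO comparisons were tested on simulated data, which held no candesartan change. Members and lists were chosen with earlier results of these data known. Array values were given for the 4 members with the smallest p in each comparison, for fixed subunits (Gria1, Gria2, Grin1, Grin2a, Grin2b, Grm5 and Gabrb2) and for up to 2 genes per pathway list. Gria3, Gabra5, Grm2, Grm3, Grm8, Gabra6, Gabre and Grid1, the promoters and motifs, and the 12 plotted genes were chosen after their values were seen. Alternatives changed the scaling, offset, filter, variance model, groups fitted, probe set per gene and arrays, and added a replicate block. Percentiles without control probe sets and counts without Grik1 and Grm5 were added after seeing the data.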

Additional observations from a re-analysis of the deposited data

Results flagged for a closer look

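By a criterion chosen after the values were seen, 2 members stood out: in them both MCAO pools lay on one side of both sham pools with vehicle and on the other side with candesartan. Gria2 was lower after MCAO with vehicle and higher with candesartan, an interaction of 0.77 ± 0.20 (log2), and Grin2c was higher with vehicle and lower with candesartan, an interaction of -0.50 ± 0.20. Neither interaction passed limma's test after adjustment (adjusted p = 0.458 and 0.551). The same opposite order occurred in 8.33% of tested members and in 8.81% of all tested probe sets, and the second probe set of Gria2 gave an interaction of 0.04.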

How the results depend on the processing

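The count of called members stayed at 0 in 109 of 112 recomputations, and the exceptions all left out MCAO candesartan 1: over the arrays left out it was 0 to 1 for MCAO minus sham with candesartan, 0 to 3 for candesartan minus vehicle after MCAO and 0 to 1 over both pretreatments. Gria3 after MCAO, at 0.06 for candesartan minus vehicle, ranged from -0.49 without MCAO candesartan 1 to 0.61 without MCAO candesartan 2. With arrays left out, the members' median ranged from -0.21 to -0.0775 for MCAO minus sham with vehicle, -0.0706 to 0.0729 with candesartan, 0.0186 to 0.11 for candesartan minus vehicle after MCAO, and -0.0393 to 0.11 for the interaction. Median centring gave medians of 0.11 for candesartan after MCAO and 0.19 for the interaction, where it also moved the median of all probe sets to 0.0815 (-0.0479 as reported). Without the signal filter, with 39 genes fitted, the medians were -0.0235 for MCAO with vehicle, -0.0384 for candesartan after MCAO, 0.0731 for candesartan after sham and -0.0258 for the interaction. The 60th percentile filter, which left 15 members, gave 0.17 for the interaction, and the lowest-signal probe set per gene gave 0.033 for MCAO with candesartan. Percentiles taken without control probe sets, an alternative chosen after seeing the data, tested 23 members without Grm5 and called 0. A replicate block by pool number left the count of called members at 0 in all 6 comparisons, and pools with the same number did not deviate together (correlations of their deviations from -0.0951 to 0.1367). Over all probe sets, calls ranged from 7 to 93 for MCAO with vehicle (27 as reported), 5 to 835 with candesartan (25), 0 to 986 for candesartan after MCAO (7), 21 to 389 over both pretreatments (43) and 0 to 296 for the interaction (2). For candesartan after sham the count was 0 throughout. The highest of these counts other than 93, which came from fitting only the groups compared, came without MCAO candesartan 1. The cause of these shifts was not tested. Among the 24 tested members, standard errors of differences between 2 groups were largest for Grm8 and Grm5 (0.31 and 0.30).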
